A study of Mus musculus with 2 samples.

Results

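The genes of heme breakdown and iron handling were examined in the mouse eye lens, in 1 sample of cortical fiber cells and 1 sample of epithelial cells. The set was given as 9 genes: the heme oxygenases Hmox1 and Hmox2, the biliverdin reductases Blvra and Blvrb, the ferritin chains Fth1 and Ftl1, the transferrin receptor Tfrc and the iron regulatory proteins Aco1 and Ireb2. Probes carrying the symbol of a member, and no other symbol, were taken from the array. This gave 8 of the 9 members, with 1 probe each, among 13709 genes in all, and Ireb2 was not analysed here. The members were picked with the difference between these same arrays in view, so their values are a description.

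Both samples came from lenses of mice aged 13 days, of which the series names 5. The epithelium was taken as the capsule together with the cells that adhere to it, and the cortex as the fiber cells beneath. No genotype, strain or treatment is given for either sample, and the sources used here do not say whether lenses were pooled. Poly(A) RNA was labelled with biotin and hybridized to a 1-colour CodeLink mouse array. The free text of both samples names fetal liver as the RNA source, against their titles and source names, and the samples were grouped by source name.

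Heme oxygenases open the heme ring and release iron, carbon monoxide and biliverdin, which biliverdin reductases turn into the antioxidant bilirubin. Hmox1 is the inducible form, switched on by heme, oxidants and heat, and Hmox2 is the constitutive form. Freed or imported iron is stored in ferritin, a shell of heavy (Fth1) and light (Ftl1) chains, while Tfrc brings in iron bound to transferrin. Aco1 and Ireb2 bind iron-responsive elements of the ferritin and Tfrc messages and set their translation and stability by the iron supply. Mutations in the element of the light chain message cause hereditary cataract with raised serum ferritin.

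Promoter sequence was available from RefSeq (GRCm38.p6) for 8 of the 9 members, all but Hmox1. The stretches of 250 bases upstream of an annotated start are printed for the ferritin pair, whose readings differed unequally between the arrays, and for Blvra and Hmox2, whose readings barely differed. Fth1 has 2 annotated starts in this table and Hmox2 has 3, of which 1 is shown for each. Each is written 5′ to 3′ on the strand of the gene, with motif matches in capitals. The motifs, searched on both strands, were the antioxidant response element core TGACNNNGC, paired heat shock units GAANNTTC and TTCNNGAA, the CCAAT box, the TATA box TATAAA and the E-box CACGTG, and none of the matches printed overlap.
Ftl1 (chr7:45459887-45460136, minus strand): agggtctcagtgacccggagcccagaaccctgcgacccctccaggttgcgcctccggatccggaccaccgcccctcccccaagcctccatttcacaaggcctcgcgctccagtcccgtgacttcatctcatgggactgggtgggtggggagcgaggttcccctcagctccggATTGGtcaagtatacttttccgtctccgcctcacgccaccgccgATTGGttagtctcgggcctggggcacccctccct
Fth1 (chr19:9982396-9982645, plus strand): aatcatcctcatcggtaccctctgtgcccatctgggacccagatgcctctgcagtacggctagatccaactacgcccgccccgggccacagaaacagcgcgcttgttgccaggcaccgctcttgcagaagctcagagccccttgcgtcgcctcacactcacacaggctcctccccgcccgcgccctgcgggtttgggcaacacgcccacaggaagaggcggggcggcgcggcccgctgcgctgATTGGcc
Blvra (chr2:127070407-127070656, plus strand): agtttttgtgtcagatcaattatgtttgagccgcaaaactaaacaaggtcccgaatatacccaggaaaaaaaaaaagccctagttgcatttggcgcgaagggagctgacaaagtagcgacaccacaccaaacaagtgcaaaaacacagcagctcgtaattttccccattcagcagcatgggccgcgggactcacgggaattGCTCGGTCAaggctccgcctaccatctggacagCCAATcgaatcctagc
Hmox2 (chr16:4756631-4756880, plus strand): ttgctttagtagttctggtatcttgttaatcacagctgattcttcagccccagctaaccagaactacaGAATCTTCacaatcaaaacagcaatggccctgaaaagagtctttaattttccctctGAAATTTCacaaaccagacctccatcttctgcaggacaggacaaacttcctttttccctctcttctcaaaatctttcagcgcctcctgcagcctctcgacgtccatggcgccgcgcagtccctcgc
The Ftl1 stretch held the CCAAT box 2 times and the Fth1 stretch 1 time, all on the opposite strand, and neither held another motif of the set. A CCAAT box is present in 33.8% of the 32851 promoter stretches of this length. The Blvra stretch held 1 antioxidant response element core, which 10.2% of stretches hold, together with a CCAAT box. The Hmox2 stretch held 2 GAANNTTC pairs, a motif found in 6.69% of stretches. The overlapping Hmox2 stretch held the same 2 pairs and the third Hmox2 stretch held no motif of the set, while the other Fth1 stretch held 1 TATA box and no CCAAT box. A match is a run of letters and not a binding site. The 250 bases before the start of Aco1 held none of these motifs.

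Hmox1 stood apart from every other member. Its normalized intensity, in units of about the array median, was 1327 in cortex and 12.2 in epithelium. The cortex value was 108-fold higher, a log2 difference (cortex minus epithelium) of 6.76. Of the 8351 genes that lay above the floor on both arrays, a floor set at 0.5 of each array's median, Hmox1 ranked 5 from the end high in cortex. In epithelium it was still 24.5 times the floor, so both values are measured and the fold is no bound.

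With 1 array for each sample there is no replicate and no test of any difference below. The only error the data hold is that between different probes of a gene on the same arrays. Over 558 genes with several probes above the floor, probes of a gene differed in log2 difference with a pooled SD of 1.10 and a median SD of 0.59. It holds no biological variation, and each member has a single probe and so no error of its own.

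Hmox2, the constitutive heme oxygenase, read 10.3 in cortex and 10.4 in epithelium, a log2 difference of -0.00. The inducible and the constitutive gene thus parted by 6.76 on the log2 scale. Centring on ribosomal protein genes, which lowers measured differences by 0.91, put Hmox2 at -0.91 and left Hmox1 at 5.85.

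**Figure D1:**
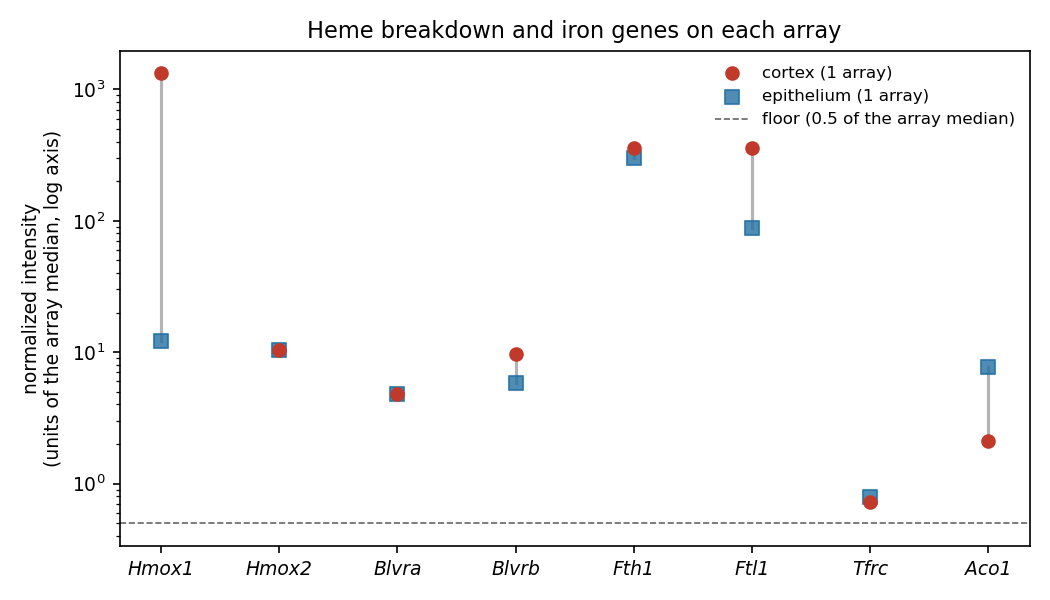
Normalized intensity (units of the array median, log axis) of the 8 members with a probe, with a circle for the 1 cortex array, a square for the 1 epithelium array and a dashed line at the floor. Hmox1 is at 1327 in cortex and 12.2 in epithelium, Ftl1 and Aco1 are separated by 4.11-fold and 3.66-fold in opposite directions, and Tfrc lies just above the floor on both arrays.

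The biliverdin reductases, the next step of the pathway, differed little. Blvra, the main reductase of adult tissue, read 4.82 in cortex and 4.84 in epithelium. Blvrb, which reduces a fetal biliverdin isomer and flavins, read 9.67 in cortex and 5.80 in epithelium, 1.67-fold brighter in cortex. Its log2 difference of 0.74 exceeded that of Blvra by 0.75, which is under the pooled SD between probes, 1.10. That SD and the median SD, 0.59, are for single probes. A difference between 2 genes with 1 probe each varies more, so 0.75 is not set apart from probe error. Blvrb turned to -0.17 after centring on ribosomal protein genes.

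Ftl1 read 359 in cortex and 87.5 in epithelium, 4.11-fold higher in cortex. Fth1 read 358 in cortex and 301 in epithelium, 1.19-fold brighter in cortex. The log2 difference of the light chain, 2.04, exceeded that of the heavy chain, 0.25, by 1.79. This is 1.63 times the pooled SD and 3.01 times the median SD between single probes. A difference between 2 genes with 1 probe each varies more than either SD, so probe error in the 1.79 cannot be set aside. Ftl1 was 1.08 after quantile normalization, 1.05 after loess on brightness and 1.13 after ribosomal centring, under the 3-fold limit in each. Fth1 changed sign, to -0.90, -0.94 and -0.66. The difference of the light chain was above that of the heavy chain under quantile normalization and loess too, while ribosomal centring shifts both alike and cannot change their order. Ferritin genes have close copies in the mouse genome whose transcripts could share these probes, so both values are uncertain.

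The iron uptake and sensing members were lower or level in cortex. Aco1, which is a cytosolic aconitase when it carries an iron-sulfur cluster and an RNA-binding regulator when it does not, read 2.10 in cortex and 7.69 in epithelium. This was 3.66-fold higher in epithelium, with a log2 difference of -1.87. Both values were above the array medians, and the difference lay between -2.79 and -1.84 in the scalings tried. Tfrc read 0.726 in cortex and 0.795 in epithelium, 1.45 and 1.59 times the floor. Both Tfrc values lie under the array median of 0.998, and no detection call was used, so whether the probe read true signal is not known.

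A rule of size stood in for a test: a gene counted as higher in a sample when at least 3-fold brighter there, with that array at or above its median. By this rule 2 of the 8 members, Hmox1 and Ftl1, were higher in cortex, where 9.41% of all genes were. In epithelium 1 of the 8, Aco1, was higher, against 8.17% of all genes. Since the members were chosen on this contrast, nothing is read from these shares. The median log2 difference of the members was 0.12, and -0.00 without Hmox1, beside 0.03 for the genes that exceeded the floor on each array. Differences were above 0 for 4 members and below 0 for 4.

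**Figure D2:**
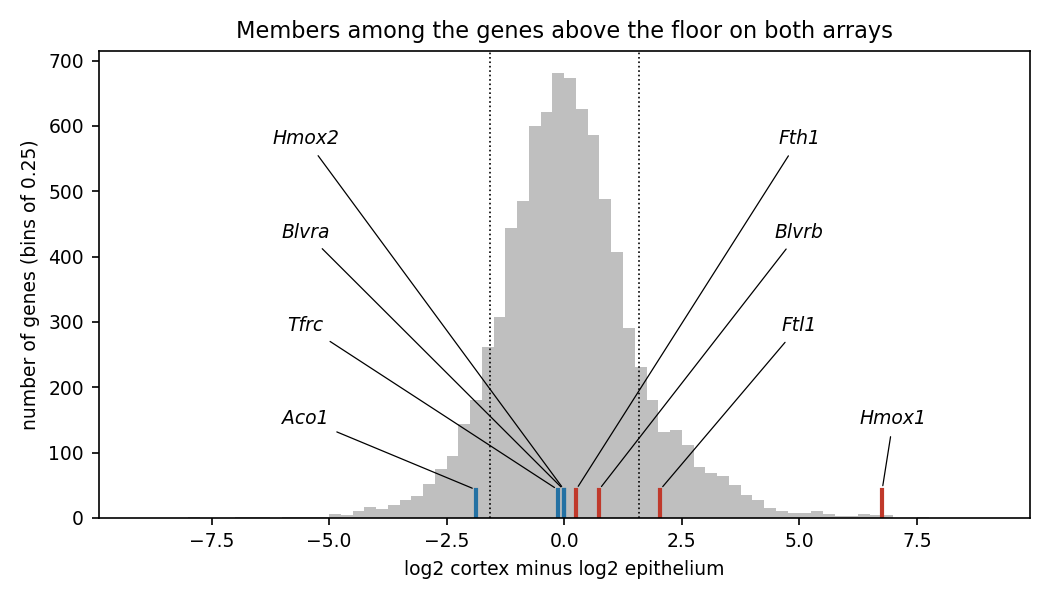
Number of genes by log2 cortex minus log2 epithelium (bins of 0.25) over the 8351 genes measured above the floor on each array, with the 8 members marked and dotted lines at 3-fold. Hmox1 at 6.76 lies in the far right tail, Ftl1 at 2.04 and Aco1 at -1.87 lie just beyond the limits, and the other 5 members lie near the centre.

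The call of Hmox1 and that of Aco1 held under quantile normalization, loess and ribosomal centring, while that of Ftl1 did not. For Aco1 ribosomal centring could not remove the call, since it shifts measured differences toward epithelium. Hmox1 ranged from 5.85 to 6.76 over the scalings. Hmox2, Blvra and Tfrc lay between -0.24 and 0.02 under the deposited, quantile and loess scalings and between -1.04 and -0.91 after ribosomal centring.

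**Figure D3:**
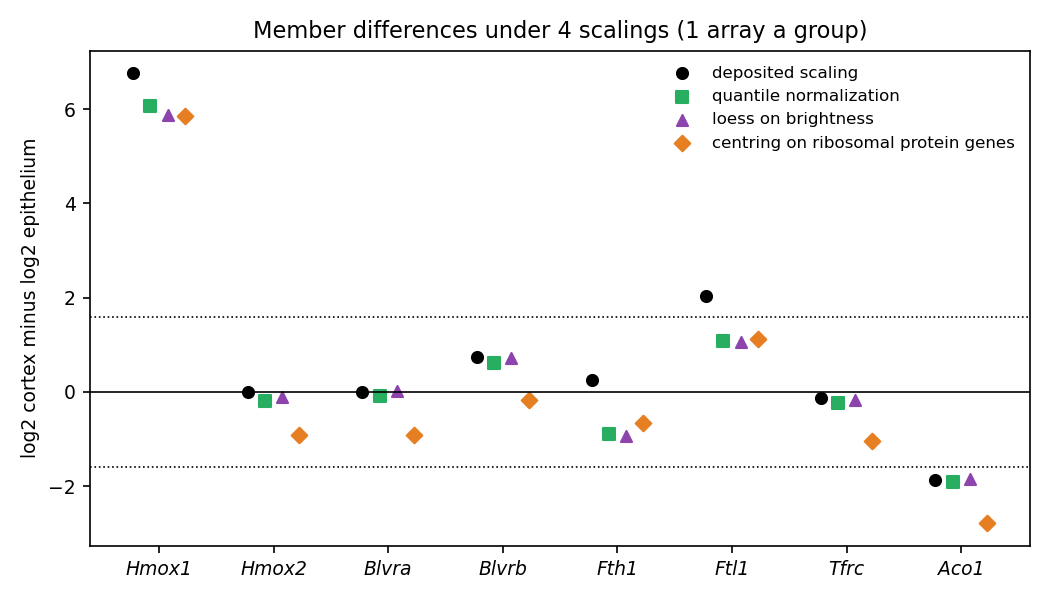
Log2 cortex minus log2 epithelium of the 8 members under the deposited scaling, quantile normalization, loess on brightness and centring on ribosomal protein genes, with dotted lines at 3-fold. Hmox1 stays between 5.85 and 6.76, Aco1 stays below the lower line, Ftl1 drops under the upper line in the 3 other scalings, and Fth1 changes sign.

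The genes nearest to Hmox1 in their pair of log2 values, by Euclidean distance over the 2 arrays, were Hspb1, Pnliprp2, Fxyd2, Bfsp1 and Lenep. Hspb1, a small heat shock protein, was nearest at a distance of 0.23, with 1197 in cortex and 13.9 in epithelium. Bfsp1, the beaded filament protein filensin, read 738 and 12.5. Lenep, a lens protein gene, read 1512 and 34.5, and Pnliprp2, a pancreatic lipase-related gene, read 1401 and 18.4. Fxyd2, a regulator of the sodium pump, read 1198 and 19.3 on its bright probe, a log2 difference of 5.95. Its second probe read 1.62 and 1.66, a difference of -0.03. That pair of probes shows how far readings of a gene can part on these arrays.

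Marker genes were read beside the labels. Their lists were chosen with earlier results of these data known, so the counts are a description and no independent check. By the same size rule 7 of 9 fiber markers were higher in cortex, with Grifin (754 against 150), Bfsp1 and Lgsn (238 against 2.91) brightest. The count was 6 after quantile normalization or loess and 5 after ribosomal centring, and Grifin did not pass in any of the 3. Of 11 epithelial markers, 9 were higher in epithelium, with Igfbp5 (161 against 0.672), Pdgfra (118 against 2.17) and Slc2a1 (110 against 12.2) brightest. The second probe of Igfbp5 read 0.507 in epithelium and that of Pdgfra 1.36, both under the floor in cortex. Their log2 differences, with cortex set to the floor, were -0.02 and -1.45. Of 12 ciliary body, pigment and iris markers, 5 were higher in epithelium and 2 in cortex, and the brightest were Ptgds (123 in epithelium, 7.54 in cortex), Oca2 (9.09 and 0.521) and Msx1 (8.36 and 1.07). Of 10 retina markers, Rom1 alone was higher in epithelium, and Pde6a and Rcvrn reached at most 3.66. None of 7 vascular markers passed, and the brightest, Tek, reached 2.40. In such bulk samples, fewer cells of a type and less RNA per cell cannot be told apart.

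Cells rich in heme oxygenase or heme, macrophages, red cell precursors and liver cells, were looked for beside the Hmox1 value. Of 15 macrophage markers, 12 were at the floor on both arrays, among them Ptprc, Adgre1 and C1qa, and their summed intensity was 6.31 in cortex and 3.64 in epithelium. Cd163, Cx3cr1 and Cd14 were the brightest, at 1.06, 1.02 and 0.788 in cortex. Of 12 erythroid markers, 3 (beside 9.41% of all genes) were higher in cortex, with a summed intensity of 119 against 32.3. These were Tal1 (90.7 against 22.1), Rhag (20.9 against 6.37) and Epb42 (2.09 against 0.678), and none of them passed after ribosomal centring. Tal1, the brightest, also failed after quantile normalization (1.46) and loess (1.45), and Rhag after quantile normalization (1.51). Epb42 failed once the floor was raised to the median. The erythroid count was thus 1 after quantile normalization and 2 after loess. The globin gene Hba-a1 read 1.39 and 1.79, and Slc4a1, the band 3 anion exchanger, was at the floor on both arrays. Of 15 liver markers, 6 were at the floor on both arrays, Ttr and Apoa1 among them, and the sum was 195 against 26.2. The sum came mostly from Ahsg, the fetuin-A gene (185 against 16.9, 10.9-fold higher in cortex), followed by Serpina1b (3.66 against 2.96) and Trf (1.16 against 2.26). The part of the erythroid and liver signals in the Hmox1 value was not tested.

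The wider pathway was described through 7 gene lists with 89 measured genes. The size rule placed 9 (10.1%) in cortex and 11 (12.4%) in epithelium, beside 9.41% and 8.17% of all genes. The same shares of all genes stand beside the counts of each list below. After ribosomal centring the counts were 4 and 31. All 11 calls in epithelium, and 4 of the 9 in cortex, held under the 3 other scalings and with the floor at the array median. Ribosomal centring shifts measured differences toward epithelium, so it could remove calls in cortex but none in epithelium. The calls of Hebp2, Slc39a8, Meltf and Slc25a37 were lost in that setting alone, and that of Flvcr2 there and under the higher floor. These counts therefore do not compare how stable the calls in each sample are.

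**Figure D4:**
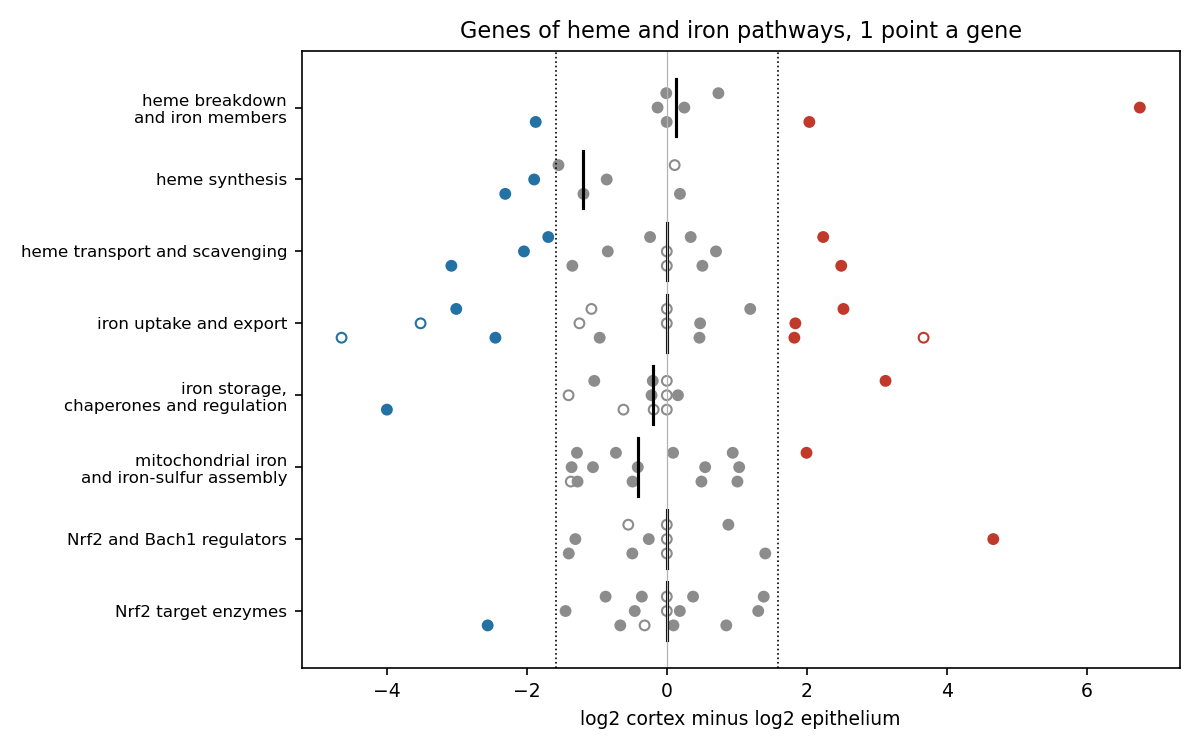
Log2 cortex minus log2 epithelium of the members and of the 89 genes in 7 heme and iron lists, 1 point a gene. Red marks genes called in cortex and blue genes called in epithelium, open points genes at the floor on at least 1 array, black bars the list medians and dotted lines 3-fold; the heme synthesis median lies at -1.19 and no gene of that list lies beyond the right line.

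Of the 7 heme synthesis genes measured, 2 passed the size rule in epithelium, where 8.17% of all genes did, and 0 in cortex, where 9.41% did. The median log2 difference was -1.19, beside 0 for all genes. Alad, which joins aminolevulinic acid into porphobilinogen, read 2.78 in cortex and 13.8 in epithelium, 4.95-fold higher in epithelium. Ppox, protoporphyrinogen oxidase, read 1.81 and 6.72, a 3.72-fold difference. Fech, which inserts iron into the ring, read 1.42 and 4.14 and stayed just under the limit at 2.93-fold. Urod read 3.66 and 8.36, and Alas1, the first and rate-limiting enzyme outside red cells, read 3.89 and 7.06. Uros (1.29 against 1.13) and Cpox (0.539 in cortex, under the floor in epithelium) were slightly brighter in cortex with the deposited scaling. Over the listed genes above the floor on each array the median was -1.37, beside 0.03 for all such genes. Quantile normalization put it at -1.42 and loess at -1.32, where all genes above the floor on each array had medians of -0.11 and -0.09.

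Heme transport and scavenging genes split. Of 13 measured, 2 were higher in cortex and 3 in epithelium. Hebp2, a heme-binding protein, read 110 in cortex and 19.5 in epithelium (5.63-fold), a call lost after ribosomal centring. Its relative Hebp1 went the other way, at 0.918 and 7.76 (8.45-fold higher in epithelium). Flvcr2, a heme transporter, read 2.51 and 0.534, but its second probe read 0.511 and 1.31, so its direction is not settled. Lrp1, the receptor of heme-hemopexin complexes, was 4.12-fold higher in epithelium (20.7 against 5.02) and Pgrmc1, a heme-binding membrane protein, 3.24-fold (15.4 against 4.77). Abcb10 (-1.35), Hpx (-0.84) and the lysosomal heme exporter Slc48a1 (0.70) did not pass.

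Iron uptake and export genes also split, with 4 of 16 higher in each direction. The ferroxidase gene Heph read 12.5 in epithelium and lay under the floor in cortex, at least 25.1-fold higher in epithelium. The other multicopper ferroxidase, Cp, read 6.43 against 1.18 (5.46-fold). The related genes Steap1 (at least 11.5-fold, under the floor in cortex) and Steap2 (7.58 against 0.942, 8.05-fold) were higher in epithelium. Steap3, the ferrireductase of the transferrin cycle, went the other way, with 6.35 in cortex and a value under the floor in epithelium, at least 12.7-fold. Ltf (5.75-fold), Slc39a8 (3.57-fold) and Meltf (3.54-fold) were also higher in cortex, with cortex values of 4.05, 3.49 and 3.11, and the calls of Slc39a8 and Meltf were lost after ribosomal centring. The iron exporter Slc40a1, ferroportin, read 6.02 in cortex and 2.64 in epithelium, 2.29-fold brighter in cortex. Tfr2 (1.19) and the iron importer Slc11a2 (1.05) were above the floor in epithelium alone, with bounds under 3-fold.

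Among 12 genes of iron storage, chaperoning and regulation, 1 was higher in each sample. Hif1a, the oxygen-regulated factor that acts on Hmox1 and Tfrc among other genes, read 4.29 in cortex and 68.6 in epithelium, 16.0-fold higher in epithelium. Tmprss6, a membrane protease that restrains hepcidin, was 8.73-fold higher in cortex (7.35 against 0.841). The iron chaperone genes Pcbp2 (35.3 against 72.3) and Pcbp1 (43.0 against 50.0) stayed under the limit, although Pcbp2 passed in epithelium after quantile, loess or ribosomal scaling. Ncoa4, the receptor for ferritin breakdown, read 1.46 and 1.68. Neo1 and Hamp lay under the floor in cortex, with 1.32 and 0.767 in epithelium.

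Mitochondrial iron and iron-sulfur assembly genes mostly lay within 3-fold. Of 15 measured, 1 was higher in cortex: Slc25a37 (mitoferrin 1, the mitochondrial iron importer), at 12.1 against 3.02, a 3.99-fold difference that was under the limit after ribosomal centring. The scaffold gene Iscu read 35.9 and 25.5. Ciapin1, of the cytosolic assembly route, was brighter in epithelium on all 3 of its probes, with log2 differences of -1.36, -1.11 and -1.40. Fdx1 (-1.28) and Abcb8 (at least 2.59-fold brighter in epithelium) did not pass either. After ribosomal centring 6 of the 15 were higher in epithelium.

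Regulators of Hmox1 transcription were set beside it. Of 11 measured, 1 was higher in cortex, the heat shock factor Hsf4, at 139 against 5.46 (25.4-fold). Hsf4 is also 1 of the fiber markers counted above, so its call here is no separate observation. Nfe2l2, which encodes the activator Nrf2, read 6.05 and 7.23. Bach1, the heme-sensing repressor of Hmox1, read 7.18 and 3.90, 1.84-fold brighter in cortex. Cul3 (2.65-fold brighter in cortex), Nfe2l1 (2.64-fold brighter in epithelium) and the Nrf2 inhibitor Keap1 (2.47-fold brighter in epithelium) did not pass. The other Nrf2 target enzymes showed smaller differences. Of 15 measured, none was at least 3-fold higher in cortex, and 1, the transketolase gene Tkt, was higher in epithelium (342 against 58.0, 5.90-fold). Gclc (36.5 against 14.0) and Me1 (12.9 against 5.20) were brighter in cortex by less than 3-fold, Pgd (3.39 against 9.24) was brighter in epithelium, and Nqo1 lay under the floor in cortex and at 0.622 in epithelium. The largest log2 difference toward cortex in this list was 1.38, against 6.76 for Hmox1.

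Because Hmox1 answers to heat and to other stress, stress genes were examined in lists added after the values were seen. Of 12 heat shock genes, 2 were higher in cortex, Hspb1 and Dnajb1 (59.0 against 5.67, 10.4-fold). Hspa1a did not exceed the floor on either array, and Hspa1b, the other main inducible Hsp70 gene, was brighter in epithelium (1.66 against 3.24). Of 13 immediate early genes, Zfp36 (8.29 against 1.57) was higher in cortex and Klf4 (at least 3.28-fold) in epithelium, and 5 were at the floor on both arrays, Egr1 and Junb among them. Zfp36 did not pass after ribosomal centring, nor Klf4 with the floor at the array median. Of 11 genes of the integrated stress response, Ppp1r15a (219 against 3.23, 67.8-fold) was higher in cortex and the serine synthesis gene Phgdh (16.4 against 1.35, 12.2-fold) in epithelium. Atf4 read 250 and 96.3, and Ddit3 8.37 and 7.94. The part of dissection or handling in the Hmox1 value was not tested.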

How the data were processed

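The deposited values are 1 normalized intensity per probe for 19819 probes on each array, on a linear scale with array medians of 0.998. Per the labels, the authors scanned biotin-labelled, Cy5-stained CodeLink arrays and read them with the CodeLink software. The sources used here do not state their scaling or background steps. Genes were named from the platform annotation, in which 15120 probes had 1 symbol, 38 had several and 4661 had none. Values at or below 0.5 of the array median were raised to that floor before log2 was taken, and the brightest probe of a gene was used. Probes missing on either array were left out. A difference of 0 was set where a gene did not exceed the floor on either array, and a gene at it on 1 array has a bound, written "at least".

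The members, gene lists and limits were chosen with earlier results of these data known. Named genes are all members, pathway genes past the limit, up to 3 further genes of each pathway list, the brightest 3 of each marker list and the 5 nearest to Hmox1. Exceptions were named after their values were seen. They are Uros, Cpox, Nfe2l2, Bach1, Ncoa4, Iscu, Pcbp1, Nqo1, marker genes at the floor, Hba-a1 and the added lists. The procedure was tested on simulated data, with changes planted in bright genes of 1 probe and noise of at most 0.59. Changes in dim genes, and noise as large as the pooled SD of 1.10, were not simulated. Python 3.11.15, numpy 2.4.6, pandas 2.3.3, statsmodels 0.14.6 and matplotlib 3.10.9 were used.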

Additional observations from a re-analysis of the deposited data

How the results depend on the processing

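With 1 array a group, the limits are the missing replicate and the single probe of each member. Alternatives were the 3 other scalings (loess span 0.3), no floor, a floor at the array median, the mean over probes, the second brightest probe, fold limits of 2 and 5, and no condition on the brighter array. The count of members higher in cortex fell from 2 to 1 after quantile normalization, loess or ribosomal centring and at 5-fold, with Ftl1 lost. The count in epithelium was 1 under the 3 other scalings, with the higher floor and at 2-fold, but 0 at 5-fold. Ribosomal centring and the 2-fold limit could not lower that count. The probe alternatives, no floor and no condition on the brighter array could not move the members' counts, since each member has 1 probe above the floor and 3-fold over the floor already exceeds the array median. The members' median was -0.79 after ribosomal centring and lay between -0.14 and 0.13 otherwise. Calls over all genes were 1290 for cortex and 1120 for epithelium, against 592 and 2738 after ribosomal centring, so that the share of calls in cortex went from 53.5% to 17.8%. At 2-fold the counts were 2243 and 2101, and at 5-fold 698 and 477. No called member changed sign. No paired analysis was possible because each group holds 1 sample.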

Other observations

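Hif1a differed 16.0-fold, and genes tied to hypoxia-inducible factors were therefore read in a list added after the values were seen. The size rule placed 3 of 21 measured genes in epithelium and 1 in cortex, beside 8.17% and 9.41% of all genes. The list's median log2 difference was -0.86, beside 0 for all genes. That median is the value of Hif1an, whose second probe went the other way (13.6 in cortex, 2.35 in epithelium). Over the listed genes above the floor on each array the median was -0.67, beside 0.03 for all such genes. The lactate dehydrogenase gene Ldha read 20.5 in cortex and 265 in epithelium (12.9-fold), and the prolyl hydroxylase gene P4ha2 was at least 5.10-fold higher in epithelium, a call lost with the floor at the array median. Slc2a1 was the other gene higher there, and it was already counted among the epithelial markers. Ndrg1, also induced by hypoxia, went the other way, at 228 against 19.0 (12.0-fold higher in cortex). Of the iron-dependent hydroxylases that mark the factor for breakdown, Egln1 read 2.38 and 2.49 and Egln2 3.58 and 4.05. Egln3 read 6.65 and 13.5, 2.03-fold brighter in epithelium, and passed there after ribosomal centring. The mitophagy receptor genes Bnip3 (27.7 and 26.0) and Bnip3l (65.4 and 54.5) were nearly level, and the partner gene Arnt read 4.55 and 1.88. After ribosomal centring 10 of the 21 were higher in epithelium and 1 in cortex.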
